A study of Danio rerio with 3 samples.

Results

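Chondrocytes secrete more than collagen. The genes described here encode the other proteins of the cartilage matrix, and they were chosen by name, with earlier results of these data known. They were the matrilins matn1, matn3a, matn3b and matn4, cartilage oligomeric matrix protein (comp), the Gla-rich matrix proteins ucmaa and ucmab, chondromodulin (cnmd, formerly lect1) and snorc. Of these 9 names, 7 had a row among the 14417 genes of the count table, where chondromodulin is listed as lect1. The row COMP was taken as cartilage oligomeric matrix protein by its name alone, since the annotation of the count table is not named. No row was matched for matn3b or snorc, and neither was analysed here.

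All samples came from wild-type zebrafish larvae at 6 dpf (days post-fertilization). Cartilage of the cranial base in the occipital region was cut from sections by laser, and its RNA was amplified and sequenced. The authors state that perichondral cells were avoided, though genes of perichondrium and bone were counted, as given below. There were 3 independent samples of this single condition, called libraries 1, 3 and 6 after the numbers in their titles. How many larvae gave each sample is not stated in the sources used here. With no other genotype, age or tissue there was no contrast and no test, so every value is a level with its spread over libraries (mean ± SD, n = 3).

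Matrilins are secreted proteins built from von Willebrand factor A domains, EGF-like repeats and a coiled coil through which their chains join. They bind collagen fibrils and proteoglycans and so tie the parts of the matrix together. The product of matn1 is the classic cartilage matrix protein, and matn3 genes are likewise known for cartilage, whereas matn4 is known from a wider range of tissues. COMP is a thrombospondin that joins into pentamers and binds collagens, and in humans its mutation causes pseudoachondroplasia. Ucma proteins are small, secreted and rich in gamma-carboxylated glutamate. Chondromodulin is made as a membrane protein and its released part inhibits blood vessel growth, and cartilage has no vessels.

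The deposited values were whole-number counts of reads per gene. Their totals were 25604897, 21290328 and 18920027 for libraries 1, 3 and 6, and a gene named AC024175.4 took 59.0%, 53.7% and 34.7% of them. Counts were therefore scaled with TMM, a trimmed mean of log ratios between libraries that a few abundant genes hardly affect. One read was then worth 0.965, 1.102 and 0.947 normalized counts in libraries 1, 3 and 6. Shares are given without AC024175.4. Counting intervals (95%, exact) express the counting error of reads alone. Since amplified reads are not separate molecules, these intervals may be too narrow for the error of counting molecules. Counts were not divided by transcript length, so an order of genes by counts is an order of reads and not of transcripts.

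Cartilage identity was looked at on a list of 17 chondrocyte genes, of which 16 had a row. All 16 reached a minimum of 10 normalized counts in each library. So did all 10 muscle and all 4 blood genes with a row, and 67.8% of all genes. Passing it therefore does not mark cartilage. The chondrocyte genes held 7.85%, 7.71% and 10.6% of the counts in libraries 1, 3 and 6. Markers of other tissues were also present. Library 1 stood apart on the lists of perichondrium and bone and of epidermis. On 12 perichondrium and bone genes it had 1.97% of its counts, whereas library 3 had 0.0612% and library 6 had 0.110%. Most of this sum in library 1 lay on the type I collagen genes col1a1b, col1a1a and col1a2, at 91710, 56620 and 37406 normalized counts. Of the 12 genes, 9 were highest in library 1 and 3 in library 6. Among the latter was runx2b, with 606, 492 and 1439 normalized counts in libraries 1, 3 and 6. On 5 epidermis genes it had 0.381%, whereas libraries 3 and 6 had 0.0477% and 0.0450%. Blood genes were lowest in library 3, at 0.0462%, against 0.341% in library 1 and 0.314% in library 6. The 10 muscle genes held 0.0990%, 0.0406% and 0.151% of the counts in libraries 1, 3 and 6, and 9 of the 10 were highest in library 6 in normalized counts. The 9 nerve genes held 0.0531%, 0.0912% and 0.0877%, and 6 of the 9 were highest in library 6 in normalized counts, as were 3 of the 4 blood genes. The share of all genes that were highest in library 6 is not given here. In the perichondrium and bone list 9 of the 12 genes met the minimum, and sp7, a regulator of osteoblasts, was at 0 reads in library 1. In the epidermis list 4 of 5 met it, and the claudin gene cldne was at 0 reads in libraries 3 and 6.

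**Figure D1:**
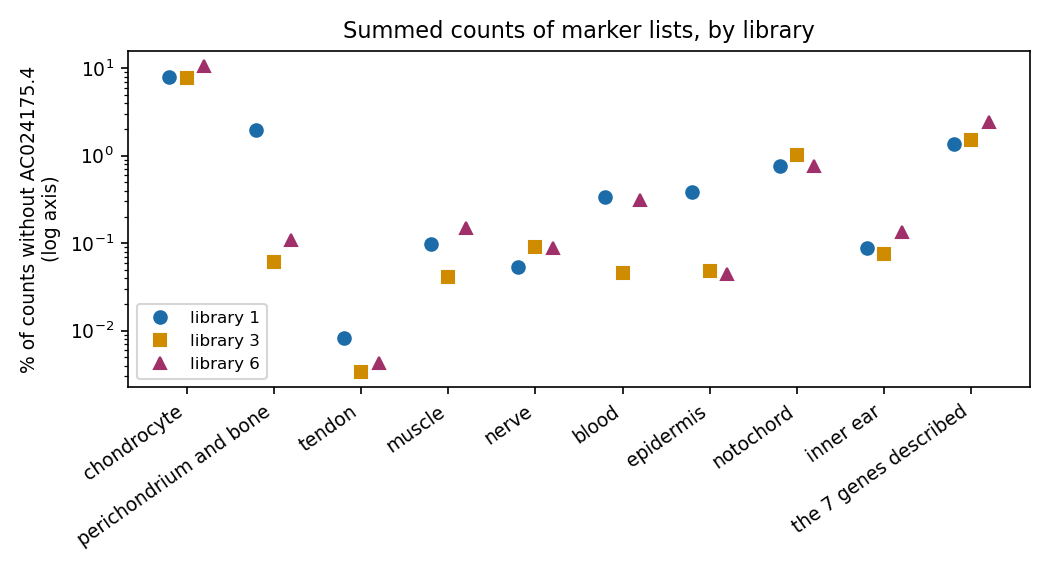
Percent of counts (log axis, AC024175.4 left out) summed over each marker list and over the 7 genes described, with 1 point per library. Only 2 of 7 notochord and 3 of 6 inner ear genes had a row. Their points are mostly epyc and OTOS, though otomp added 2059 normalized counts to the inner ear list in library 1. Whether notochord or ear tissue was present was not tested. Chondrocyte genes held 7.71 to 10.6%, and library 1 stands above the other libraries on the perichondrium and bone list (1.97%) and the epidermis list (0.381%).

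Of the 7 genes, 6 reached this minimum in all libraries. Among all 14417 genes, 9779 (67.8%) met the same minimum, so that passing it is common. The exception was matn3a. Their reads were very unevenly divided, since matn1 alone held 78.4%, 81.1% and 86.9% of all reads on the 7 genes in libraries 1, 3 and 6. By mean counts the order was matn1, lect1, matn4, ucmaa, ucmab, COMP and matn3a. At each step of this order the lowest library of the gene above exceeded the highest library of the gene below, and the difference of means exceeded the larger SD. The last step, COMP above matn3a, rested on 20 COMP reads in library 1 against 14 matn3a reads in library 3. Their counting intervals overlapped. Without library 1 the means of the 5 genes with most reads were 190160, 24189, 6489, 2699 and 603 normalized counts, in the same order.

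**Figure D2:**
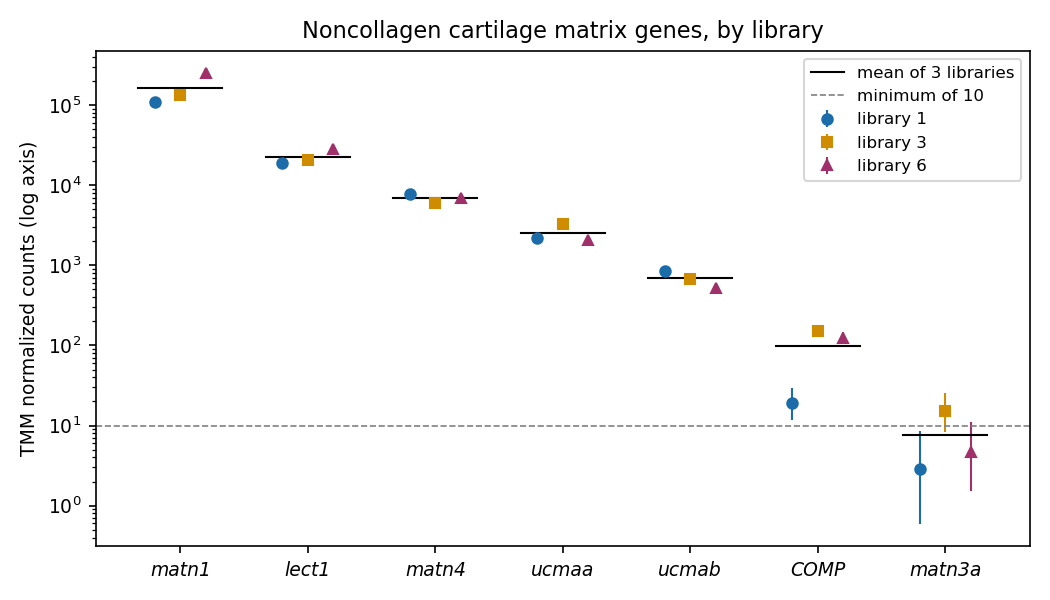
TMM normalized counts (log axis) of the 7 genes, with 1 point per library, 95% Poisson counting intervals as bars (hidden by the points where they are narrow), the mean of 3 libraries as a black line and the minimum of 10 dashed. Levels run from a mean of 162792 for matn1 to 7.68 for matn3a, and the ranges of neighbouring genes do not overlap. The counting intervals of COMP in library 1 and matn3a in library 3 do overlap.

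The matrilins came first. The gene matn1 had 111950 reads in library 1, 119657 reads in library 3 and 262466 reads in library 6. In normalized counts these were 108058, 131803 and 248516, with a mean of 162792 ± 75182. Library 6 was high and libraries 1 and 3 lay close to each other. The level in library 6 was 2.07 times the mean of the other libraries with TMM, and library 6 was also highest with every other scaling tried, by factors between 2.02 and 2.78. The muscle genes, like the chondrocyte genes, had their largest share in library 6, and their part in this value was not tested.

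As a share of counts, matn1 took 1.07%, 1.21% and 2.12% in libraries 1, 3 and 6, with counting intervals of 1.06 to 1.07%, 1.21 to 1.22% and 2.12 to 2.13%. The mean was 1.47 ± 0.57%. The libraries thus differed by far more than the counting error of reads. Their SD on the log2 scale was 0.63, which was larger than that of 44.9% of the 9779 genes that met the minimum. This spread rested on library 6, without which the SD was 0.20, and it was 0.88 with total-count scaling.

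Few genes of the table had more reads than matn1. It ranked 7, 6 and 5 in libraries 1, 3 and 6, and 6 by mean normalized counts. Next above it were col9a2 with 174534 ± 36439 normalized counts, the ribosomal gene rplp2 with 316311 ± 96512 and col11a1a with 328326 ± 101117. Next below were the chaperone gene hsp90ab1 with 106182 ± 17066, zgc:158463 with 104561 ± 34056 and the elongation factor gene eef1a1l1 with 100026 ± 46996. The differences between matn1 and all 6 of these genes except rplp2 and col11a1a were smaller than the SD of matn1 over libraries. No other matrilin, and no other gene of the 7, was among the 10 most abundant.

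**Figure D3:**
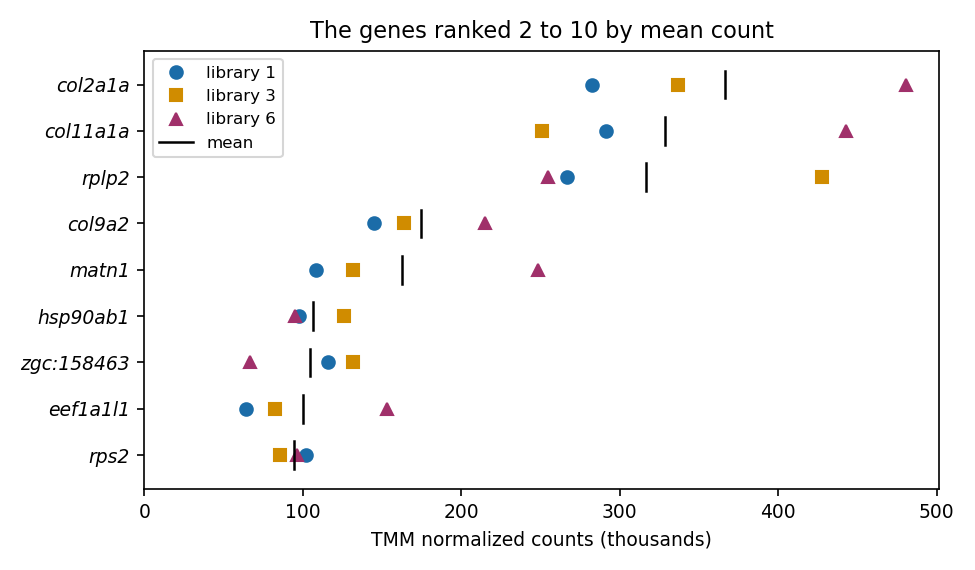
TMM normalized counts (axis in units of 1000) of the genes ranked 2 to 10 by mean count, with AC024175.4 at rank 1 left out; points are libraries and black ticks are means. The gene matn1 is at rank 6, and its library 6 point at 248516 lies above those of libraries 1 and 3.

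In TMM normalized counts matn4 differed less between libraries than matn1. It had 7997, 5477 and 7334 reads, or 7719, 6033 and 6944 normalized counts, in libraries 1, 3 and 6, with a mean of 6899 ± 844. No library stood far apart, though the counting intervals of 7551 to 7890, 5874 to 6195 and 6786 to 7105 did not overlap. Its SD on the log2 scale of 0.18 was larger than that of only 5.50% of the genes that met the minimum. Which library was highest depended on the scaling, being library 1 with TMM, DESeq2 size factors and raw counts and library 6 with total-count and upper-quartile scaling.

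Only a trace of matn3a was counted. It had 3, 14 and 5 reads in libraries 1, 3 and 6, or 2.90, 15.4 and 4.73 normalized counts, so that it met the minimum only in library 3. The counting intervals were 0.597 to 8.46, 8.43 to 25.9 and 1.54 to 11.0 normalized counts, and those of libraries 1 and 3 barely overlapped. Library 3 was the highest, and with so few reads the size of its excess is uncertain. The mean of 7.68 ± 6.76 was 3.81 without library 3. Its paralog matn3b was not matched to a row, and whether reads of one could have been assigned to the other is not known.

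Within the matrilins, matn1 took 93.3%, 95.6% and 97.3% of the reads in libraries 1, 3 and 6. The number of matn1 reads for each matn4 read was 14.0, 21.8 and 35.8 in libraries 1, 3 and 6. This ratio needs no scaling. It varied 2.56-fold and was largest in the library with the most matn1.

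Chondromodulin was the next most counted gene. Listed as lect1, it had 19751, 18583 and 29475 reads in libraries 1, 3 and 6. The normalized counts were 19064, 20469 and 27908, with a mean of 22481 ± 4753, and the gene ranked 74. Library 6 was again the highest, under each scaling tried, but by a smaller factor than for matn1, 1.41 times the mean of libraries 1 and 3 with TMM. The related gene tnmd encodes tenomodulin, known from tendon, and had 836, 359 and 435 normalized counts. For each tnmd read there were 22.8, 57.0 and 64.2 lect1 reads in libraries 1, 3 and 6, and library 1 was the library with the most tnmd.

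Both ucma genes were counted in every library. In libraries 1, 3 and 6 ucmaa had 2190, 3318 and 2080 normalized counts (2529 ± 685), with library 3 high. Its paralog ucmab had 849, 679 and 528 normalized counts (685 ± 161), with library 1 high and library 6 low. The lowest library of ucmaa was thus well above the highest of ucmab. There were 2.58, 4.89 and 3.94 ucmaa reads per ucmab read, so the same paralog had more reads in all 3 libraries while the ratio itself varied 1.90-fold. The highest library was the same under every scaling for both genes. For ucmaa the lowest was library 6 with TMM but library 1 with total-count and upper-quartile scaling, and for ucmab it was library 3 in place of library 6 with total-count scaling.

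COMP was the most uneven of the 6 genes that met the minimum. It had 20, 137 and 130 reads in libraries 1, 3 and 6, or 19.3, 151 and 123 normalized counts, with a mean of 97.8 ± 69.4. Library 1 was low, and its counting interval of 11.8 to 29.8 normalized counts lay below those of libraries 3 and 6, which were 127 to 178 and 103 to 146. Library 3, the highest, exceeded library 1 by a factor of 7.82, and the SD on the log2 scale was 1.60, larger than that of 91.9% of the genes that met the minimum. With total-count scaling library 6 was highest, and library 1 was lowest with every scaling. By mean counts COMP exceeded 47.1% of the genes in the table. Library 1 was also the library with the largest shares on perichondrium and bone and on epidermis genes, given above, and the part of these tissues in the COMP value was not tested. Without library 1 the mean was 137.

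Because libraries may differ in how much of their RNA came from cartilage, each gene was also set against the summed reads of the 16 chondrocyte genes in the same library. That sum was 795439, 836860 and 1239396 normalized counts in libraries 1, 3 and 6, and was made up mostly of col2a1a, col11a1a and col9a2. Reads of matn1 equalled 13.6%, 15.7% and 20.1% of it. Against col2a1a alone, which encodes the chain of type II collagen, they equalled 38.3%, 39.2% and 51.7%, a log2 ratio of -1.23 ± 0.24. Hence the excess of matn1 in library 6 became smaller beside this sum and beside col2a1a, but did not vanish. It was at most 1.48-fold between libraries in place of 2.30-fold. These references overlap, since col2a1a is part of the sum. The smaller excess does not hold beside every cartilage gene, since the ratio of matn1 to matn4 varied 2.56-fold. Genes of the chondrocyte list also differed, with col2a1a highest in library 6, col11a2 in library 1 and acana in library 3 in normalized counts.

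Among the 7 genes, lect1 kept pace most closely with the chondrocyte sum, which was mostly col2a1a, col11a1a and col9a2. It did not keep pace with each gene of that list. The aggrecan gene acana, for example, had 3873, 8489 and 3877 normalized counts in libraries 1, 3 and 6. Reads of lect1 equalled 2.40%, 2.45% and 2.25% of the sum in libraries 1, 3 and 6, a range of 1.09-fold. The SD of this log2 ratio was 0.062, and only 0.634% of 9779 genes had a smaller one. Against col2a1a alone lect1 was at 6.76%, 6.08% and 5.81%, a range of 1.16-fold. This closeness was noticed among several genes and over 3 libraries, and is given as a description.

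In library 6 matn4, ucmaa and ucmab fell behind the chondrocyte sum. Reads of matn4 equalled 0.970%, 0.721% and 0.560% of the sum in libraries 1, 3 and 6, those of ucmaa 0.275%, 0.396% and 0.168%, and those of ucmab 0.107%, 0.0811% and 0.0426%. All 3 were lowest in library 6 on this ratio, whereas matn1 was highest there. On it matn4 varied 1.73-fold between libraries, more than the 1.48-fold of matn1. COMP, at 0.00243%, 0.0180% and 0.00993%, and matn3a, at 0.000364%, 0.00184% and 0.000382%, were lowest in library 1 and highest in library 3. For matn3a the order of libraries 1 and 6 is uncertain, since it rests on 3 and 5 reads. Against col2a1a alone it was reversed, at 0.00103% and 0.000985%. The genes thus differed among themselves in how they varied beside the chondrocyte list. Genes of that list differed too, and 9 of the 16 were highest in library 6 in normalized counts, as were 6 of the 9 nerve genes. The share of all genes that were highest there is not given here, so these counts are not read as a trait of either list. Among the other genes of the chondrocyte list, col11a2 had 26765, 19743 and 21553 normalized counts in libraries 1, 3 and 6. Falling behind the sum in library 6 was therefore not particular to matn4, ucmaa and ucmab.

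**Figure D4:**
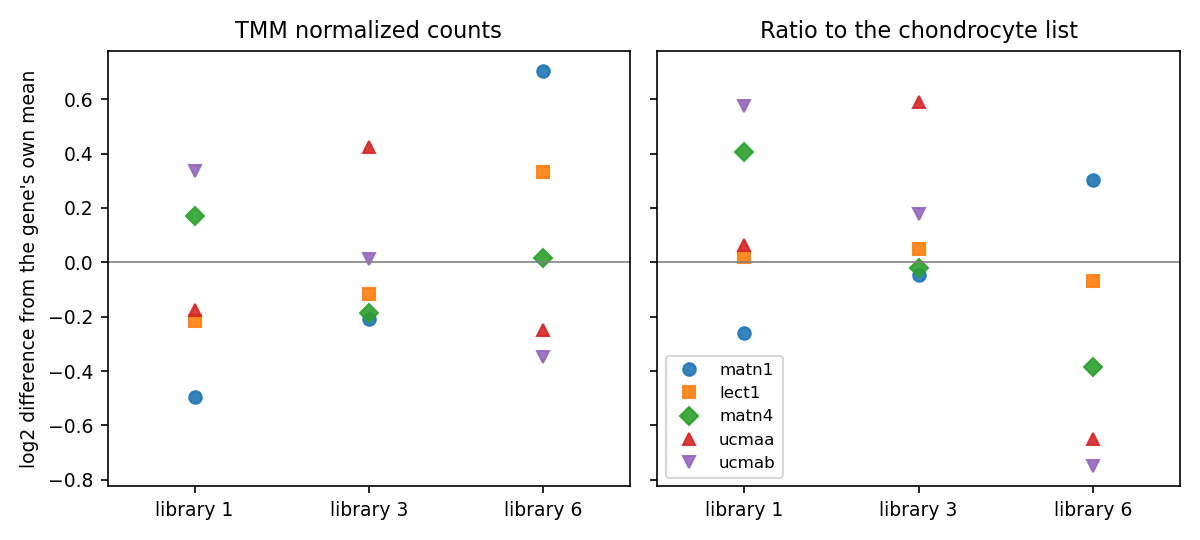
Difference of each library from the gene's own mean on the log2 scale, for the 5 genes with most reads, in TMM normalized counts (left) and as the ratio to the summed reads of the chondrocyte list (right). On the right lect1 stays near 0 in all 3 libraries, matn1 is highest in library 6, and matn4, ucmaa and ucmab are lowest there.

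The genes whose pattern over the 3 libraries was most like that of matn1 were sought among the 1396 other genes that averaged 1000 or more normalized counts. Likeness was the root mean square difference of log2 values, each gene centred on its own mean. The closest were snrnp70, which encodes a protein of the U1 splicing particle, at 0.0069, the otospiralin gene OTOS at 0.016, eef1a1l1 at 0.032, the tubulin gene tuba1c at 0.061 and the ribosomal protein gene RPL29 at 0.066. With only 3 libraries a close match is easily had, and 72 genes (5.16%) lay within 0.2. Of the other 6 genes described here lect1 was nearest to matn1, at 0.27, and COMP was farthest, at 1.07.

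Other noncollagen matrix genes gave context. Of 40 listed, which included thrombospondins, small matrix proteins and glycoproteins, 25 had a row. Beside the 67.8% of all genes that met the minimum in every library, 20 of these 25 met it. The most abundant was epyc, which encodes the leucine-rich proteoglycan epiphycan, with 76922, 111459 and 87745 normalized counts in libraries 1, 3 and 6. Next was sparc, the gene of osteonectin, with 65879, 17673 and 51324, low in library 3. The thrombospondin gene thbs1b had 14591, 15789 and 31182 normalized counts, and like matn1 was high in library 6. Of further genes of this family, thbs2b had 241, 238 and 109, and thbs4b had 46.3, 35.2 and 41.7. The gene thbs3a had 176, 43.0 and 90.0, and thbs4a, which missed the minimum, had 2.90, 8.81 and 34.1. The related COMP, at 97.8 on average, lay among these genes in counts, nearest to thbs3a. Unlike COMP, which was lowest in library 1, thbs3a was highest there.

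Lower in the list were basement membrane and cell adhesion genes. The gene tgfbi, whose product binds collagens and integrins, had 4061 ± 698 normalized counts, the perlecan gene hspg2 3194 ± 726, the nidogen genes nid1a and nid2a 2262 ± 2097 and 1120 ± 187, and the fibronectin gene fn1b 1149 ± 705. Chondroadherin (chad), a leucine-rich protein that binds cartilage cells and collagen, had 364, 675 and 2040 normalized counts and was high in library 6. The matrix Gla protein gene mgp, an inhibitor of calcification and a further Gla protein beside the ucma genes, had 17.4, 104 and 511. It too was high in library 6, the library in which ucmab was lowest with TMM. The gene mgp was outside the naming rule and was picked after its values were seen.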

How the data were processed

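Cartilage RNA of 3 wild-type samples was sequenced. The authors deposited raw counts of reads per gene name, as whole numbers without normalization. The submitters' processing notes name Trimmomatic 0.36, edgeR and the build Zv9. The aligner, counting tool and annotation are not given in the sources used here. No coordinates or sequences are given, and no transcript lengths were used here, so the planned count per coding length was not computed.

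Names were matched ignoring case, then by paralog suffix, then by a RefSeq (GRCz12tu) synonym held by exactly 1 row. TMM factors came from edgeR 4.0.16 (R 4.3.3) over all 14417 genes and were 0.883, 0.930 and 1.22 for libraries 1, 3 and 6. Normalized counts are counts divided by the effective library size, times its mean. The minimum was 10 normalized counts in every library and the pseudocount on the log2 scale was 1. No contrast or test was possible in 1 condition. No library looked like a copy of another (chi-square per degree of freedom of 166 to 416 over genes). The TMM scaling was tested on simulated counts. These were built from a common mean profile and did not copy the differing share of AC024175.4. Alternatives were DESeq2 1.42.0 size factors, other scalings, minimums and pseudocounts, and leaving out each library. Python 3.11.15, numpy 2.4.6, scipy 1.17.1 and pandas 2.3.3 were used.

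Members, lists and rules were chosen with earlier results of these data known. The naming rule takes every member with a row, the 10 most abundant other matrix genes, the 5 most abundant chondrocyte genes, the 2 most abundant genes of each further marker list, the 5 genes most like matn1, its 3 neighbours above and below in counts and the most abundant gene. Of these, marker genes are given here mainly as summed lists. The genes tnmd, thbs2b, thbs3a, thbs4a and thbs4b were named for their relation to lect1 and COMP.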

Additional observations from a re-analysis of the deposited data

How the results depend on the processing

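The number of genes that met the minimum was 6 of 7 under every scaling, with a minimum of 5, with a minimum of 10 in the mean and with any library left out. It was 5 with a minimum of 50 and 7 when any count in every library was enough. The shares of all genes at these other minimums are not given here. None of 35 levels under another scaling changed by more than 1 SD over libraries. Each scaling was centred on the mean of its own factors, so a mean over libraries could hardly move. These levels therefore say little about the scaling, which did change the order of the libraries for some genes, as given above. Leaving out 1 library moved the mean of matn3a by up to 2.01-fold (without library 3), that of COMP by up to 1.40-fold (without library 1), that of matn1 by up to 1.36-fold (without library 6), and those of the other 4 genes by up to 1.18-fold. The SD of matn1 on the log2 scale, 0.63, was between 0.20 and 0.85 with 1 library left out, lowest without library 6, and 0.88 with total-count scaling. Relative to TMM, total-count scaling shifted all genes by -0.17, -0.096 and 0.29 on the log2 scale in libraries 1, 3 and 6. The shift was lowest in library 1, with the largest share of AC024175.4, and highest in library 6, with the smallest. How much of the shift came from that gene was not tested. The share of matn1 was 0.796% with AC024175.4 in the total, against 1.47% without it, and between 1.14% and 1.67% with 1 library left out. Its rank was between 5.5 and 6.5 as a mean over the libraries left. The log2 ratio of matn1 was -2.62 to the chondrocyte sum, which holds more reads than col2a1a, and between -1.37 and -1.15 to col2a1a with 1 library left out. Depth limits matn3a, where a single read changes the value noticeably. No paired analysis was possible because there was a single group.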

Other observations

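Genes known from the inner ear, which lies beside the occipital cartilage, were among the markers looked for, and 3 of 6 had a row. OTOS encodes otospiralin, a small secreted protein, and had 6843, 8125 and 15615 normalized counts in libraries 1, 3 and 6, at rank 140. The otolith gene otomp had 2059, 1.102 and 41.7 normalized counts, and tecta, which encodes a matrix protein of the ear, 33.8, 0 and 3.79, so both were high in library 1 while OTOS was highest in library 6. A count of 0 in library 3 allows up to 3 reads, or 3.30 normalized counts. In addition, entpd5a, which is active in mineralizing tissue and the notochord sheath, had 631, 360 and 2234 normalized counts and was highest in library 6, as were matn1, thbs1b and chad.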
